A study of Mus musculus with 9 samples.

Results

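The genes described here are the 36 enzymes, transporters and regulators of glycolysis, lactate handling and the pentose phosphate pathway, chosen by symbol. All 36 symbols were found among the 46517 genes of the deposited table, and Gapdh, the gene of the transgene, was left out of the set. Bulk RNA sequencing covered 9 libraries of C57BL/6 mice older than 18 months: 2 lymph nodes of plckGAPDH mice (animals 455 and 508), 4 spleens of plckGAPDH mice (343, 508, 547 and a column with no animal number, called the unnumbered spleen) and 3 spleens of wild-type mice (1, 4 and 5). In plckGAPDH mice the Lck promoter, which works in cells of the T lineage, drives a GAPDH transgene, and the submitters name a T cell lymphoma as the disease studied. The protocol in the labels speaks of RNA from splenocytes and does not describe the lymph nodes apart. Both nodes are labelled lymph node, but their titles differ, with MES for animal 455 and LN for animal 508. The question asked is how RNA of the other glycolytic genes differs between transgenic and wild-type spleens. Animal 508 gave both a spleen and a lymph node. The labels name a plckGAPDH spleen besides 343, 508 and 547, but no column carries its animal number. Whether the 4 plckGAPDH spleens come from 4 animals is not settled by the column names, so the unnumbered spleen may share an animal with another. The p-values therefore measure the spread between these libraries.

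Values are FPKM (fragments per kilobase of gene, scaled to the counted fragments of its library), a level that can be compared between genes because it is scaled by length. Values of plckGAPDH spleens stand below in the order 343, 508, 547 and unnumbered, and those of wild-type spleens in the order 1, 4 and 5. Estimated depth was 23300000 to 34100000 fragments per library, so 1 fragment in 2000 bases was worth 0.0147 to 0.0215 FPKM. The leukocyte gene Ptprc (59.3 to 424 FPKM), the B cell gene Cd79a (65.4 to 345 FPKM) and the T cell gene Cd3e (7.24 to 79.2 FPKM) were present in all 9 libraries. Some libraries stood apart. The globin gene Hbb-bs reached 33216 FPKM in wild-type spleen 5 and 0.17 to 808 FPKM in the other libraries, and Xist was at 0.09 FPKM in that spleen and 31.2 to 59.7 FPKM in the others. Wild-type spleen 4 held 1.37 FPKM of the neutrophil gene S100a8, against 14.25 to 1162 FPKM elsewhere. The summed FPKM of 7 plasma cell genes was 2626 and 2379 in lymph nodes 455 and 508, 74.2, 4481, 337 and 187 in plckGAPDH spleens and 289, 219.8 and 326 in wild-type spleens. The 7SL RNA genes Rn7s1 and Rn7s2 took 55.9% of all FPKM in lymph node 508 and 46.2% in spleen 508, against 17.2% to 33.6% in the other libraries. Mitochondrial ribosomal RNA took from 13.2% (wild-type spleen 5) to 36.9% (wild-type spleen 4) of the signal measured as FPKM times length. The part of these differences in the levels of the members was not tested. FPKM is relative, so a library with much RNA of a few genes has lower FPKM of all others. The factors that bring the median gene to a common level (median-of-ratios scaling over 9564 genes) were 0.905, 0.725, 1.36 and 1.17 in the plckGAPDH spleens and 1.07, 0.705 and 1.24 in the wild-type spleens. In bulk RNA, fewer cells of a type and less RNA per cell cannot be told apart.

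Glycolysis splits glucose into pyruvate. Of its first steps, which include those of hexokinase, phosphofructokinase and aldolase, the steps of hexokinase and phosphofructokinase spend ATP. Its later steps, from Gapdh through phosphoglycerate kinase to pyruvate kinase, regain it. Lactate dehydrogenase turns pyruvate into lactate and regenerates the NAD that Gapdh uses, while pyruvate dehydrogenase sends pyruvate into mitochondria. The pentose phosphate pathway branches off at glucose-6-phosphate and yields NADPH and ribose for nucleotides. Dividing lymphocytes raise glycolysis, and many of these genes are known targets of hypoxia-inducible factors and of Myc.

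The 300 bases around the start of a gene (250 before and 50 after) were taken from RefSeq on GRCm38.p6, and 35 of the 36 members matched. For members, the start nearest to that of the GENCODE gene was used. For the genes tested between the spleens it was the first start listed, and the set of all promoters was used whole. The shares below thus compare starts chosen by unlike rules. Motifs of 5 letters were searched on both strands, ACGTG and GCGTG, the core that hypoxia-inducible factors are known to bind. The first also lies inside CACGTG, the E-box to which Myc is known to bind. ACGTG or GCGTG occurred in 27 of the 35 member promoters (77.1%), against 63.95% of 8544 promoters of genes tested between the spleens and 43.8% of all 32851 promoters. Median GC content was 60.3% in the member promoters, 60.7% in those of the tested genes and 52.7% in all. CACGTG occurred in 3 of the 35 (8.57%), against 10.5% of the tested genes. These are matches of letters and not sites. The promoters shown are those of Pkm, Tpi1 and Ldhb, whose FPKM as deposited did not overlap between the genotypes, and of Pgk1 and Ldha, which lie beside them in the pathway. Capitals mark ACGTG and GCGTG on either strand.
Pkm (chr9:59656326-59656625, plus strand): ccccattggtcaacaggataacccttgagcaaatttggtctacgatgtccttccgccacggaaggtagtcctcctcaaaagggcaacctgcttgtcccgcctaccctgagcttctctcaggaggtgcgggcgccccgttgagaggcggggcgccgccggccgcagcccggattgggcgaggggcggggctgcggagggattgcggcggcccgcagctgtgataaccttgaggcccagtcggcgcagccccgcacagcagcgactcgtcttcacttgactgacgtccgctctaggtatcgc
Tpi1 (chr6:124814109-124814408, minus strand): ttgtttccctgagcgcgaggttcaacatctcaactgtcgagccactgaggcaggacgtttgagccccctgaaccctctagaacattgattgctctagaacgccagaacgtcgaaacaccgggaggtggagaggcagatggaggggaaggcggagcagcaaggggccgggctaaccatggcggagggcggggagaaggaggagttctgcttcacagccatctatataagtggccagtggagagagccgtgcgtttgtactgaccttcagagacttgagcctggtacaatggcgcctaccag
Pgk1 (chrX:106186850-106187149, plus strand): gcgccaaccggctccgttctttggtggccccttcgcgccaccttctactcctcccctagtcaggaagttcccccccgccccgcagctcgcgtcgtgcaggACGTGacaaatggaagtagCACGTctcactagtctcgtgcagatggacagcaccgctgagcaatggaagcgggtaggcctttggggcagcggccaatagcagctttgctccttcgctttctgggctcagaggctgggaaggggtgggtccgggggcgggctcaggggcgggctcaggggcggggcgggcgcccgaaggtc
Ldha (chr7:46845554-46845853, plus strand): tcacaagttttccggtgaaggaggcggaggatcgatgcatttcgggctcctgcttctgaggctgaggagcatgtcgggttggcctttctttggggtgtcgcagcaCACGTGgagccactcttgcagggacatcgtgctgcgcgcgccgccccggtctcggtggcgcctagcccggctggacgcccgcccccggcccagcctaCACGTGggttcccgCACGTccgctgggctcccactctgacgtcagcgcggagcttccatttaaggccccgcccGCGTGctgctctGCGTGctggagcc
Ldhb (chr6:142507908-142508207, minus strand): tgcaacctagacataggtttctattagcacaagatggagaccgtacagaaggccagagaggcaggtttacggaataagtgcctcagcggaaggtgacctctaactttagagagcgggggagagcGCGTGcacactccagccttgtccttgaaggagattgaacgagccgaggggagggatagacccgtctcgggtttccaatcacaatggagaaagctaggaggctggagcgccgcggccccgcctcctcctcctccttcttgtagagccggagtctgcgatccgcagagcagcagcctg
Ldha held 7 matches, counting both strands of its 2 CACGTG, and Pgk1 held 2. Ldhb held 1, and none was found in these windows of Pkm and Tpi1.

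Glycolytic RNA was high in 2 of the 4 plckGAPDH spleens, and no member was called between the genotypes. Of the 36 members, 35 reached 1 FPKM in at least 3 of the 7 spleens and were tested; Eno2 did not. With limma on log2(FPKM + 1), 0 of 35 passed a false discovery rate (FDR) of 0.05 over 12607 genes, where 1.44% of all genes did (0.206% higher and 1.23% lower). At an unadjusted p under 0.05 there were 4 members (11.4%), against 8.85% of all genes. The smallest FDR among members was 0.38. Fold changes were positive in 20 members (57.1%, against 51.6% of all genes) and negative in 15. Their median log2 fold change was 0.25, beside 0.019 for all genes tested. Leaving out 1 library moved the members' median, and that of all genes moved too. Without plckGAPDH spleen 547 it was -0.032 (all genes -0.090) and without the unnumbered spleen 0.16 (all genes -0.039). Without plckGAPDH spleen 508 it was 0.40 (all genes 0.15) and without plckGAPDH spleen 343 it was 0.33 (all genes 0.047). Without wild-type spleen 4 the members' median was -0.018.

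**Figure D1:**
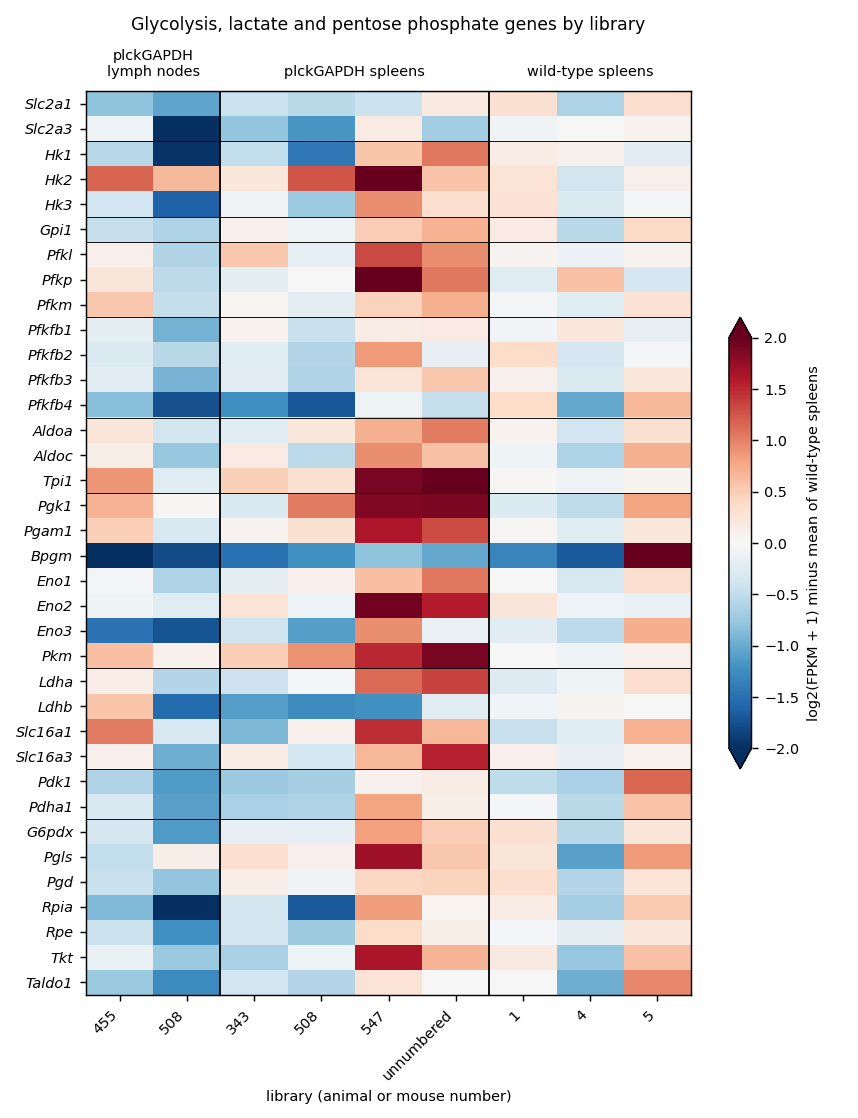
Each square is the log2(FPKM + 1) of a member in a library minus the mean of the 3 wild-type spleens, with genes in pathway order down the page and libraries across, the 2 lymph nodes and 4 spleens of plckGAPDH mice left of the wild-type spleens. Spleens 547 and unnumbered are mostly red from Tpi1 to Slc16a3, Bpgm and Ldhb apart, Bpgm is dark red only in wild-type spleen 5, and lymph node 508 is mostly blue.

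The plckGAPDH spleens did not behave alike. In spleen 547, 28 of 35 members (80%) lay above every wild-type spleen, against 45.8% of all genes tested. In the unnumbered spleen, 19 members (54.3%) did, against 33.4%. Spleens 508 and 343 had 5 (14.3%, against 14.1%) and 4 (11.4%, against 16.4%), so their shares were near those of all genes. After median-of-ratios scaling the counts were 21 (60%, against 32.4%) in spleen 547, 17 (48.6%, against 27.3%) for the unnumbered, 14 (40%, against 32.4%) in spleen 508 and 7 (20%, against 26.8%) in spleen 343. Members below every wild-type spleen numbered 1 for spleen 547 (18.3% of all genes), 2 for the unnumbered (10.5%), 15 for spleen 508 (47.0%) and 9 for spleen 343 (21.3%). After that scaling they numbered 4 in spleen 547 (11.4%, against 37.8% of all genes), 4 for the unnumbered (11.4%, against 28.4%), 11 in spleen 508 (31.4%, against 36.7%) and 12 in spleen 343 (34.3%, against 27.5%). Before that scaling, the median member of spleens 343, 508, 547 and unnumbered differed from the wild-type mean by -0.23, -0.27, 0.80 and 0.56 (log2). No all-gene median was taken for these differences, which include shifts of whole libraries. The median-of-ratios factors, in the same order, were 0.905, 0.725, 1.36 and 1.17. A negative median thus does not by itself place the members below other genes. For spleen 508 the scaled share above every wild-type spleen was larger for members (40%) than for all genes (32.4%).

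**Figure D2:**
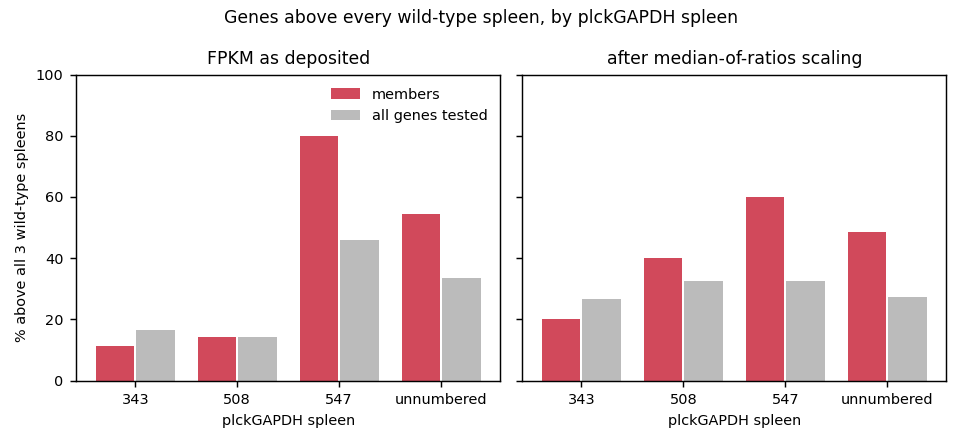
Bars give, for each plckGAPDH spleen, the percent of the 35 members tested (red) and of all genes tested (grey) that lay above all 3 wild-type spleens, from FPKM as deposited on the left and after median-of-ratios scaling on the right. Members exceed all genes in spleens 547 (80% against 45.8%) and unnumbered (54.3% against 33.4%), in spleen 508 only after scaling (40% against 32.4%), and in spleen 343 on neither scale.

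Genes of cycling cells were high in the same libraries. The summed FPKM of 12 such genes was 143, 219, 756 and 449.9 in plckGAPDH spleens, against 99.2, 136 and 81.8 in wild-type spleens. Their median log2 fold change was 1.43, and all 12 were positive under each of the 4 scalings tried. With limma 0 were called, and 8 had an unadjusted p under 0.05. Mki67, a marker of dividing cells, was at 28.6, 42.5, 146 and 68.2 FPKM in plckGAPDH spleens, against 15.8, 22.8 and 6.37 FPKM in wild-type spleens. Gapdh itself lay highest in the same spleens 547 and unnumbered, with 429.6, 505, 889.9 and 894 FPKM in plckGAPDH spleens, against 299, 348 and 338 FPKM in wild-type spleens. The part of cycling cells in the levels of the members was not tested.

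Glucose enters through the transporters Slc2a1 (GLUT1) and Slc2a3 (GLUT3), and both had negative fold changes under each scaling, without a call. Slc2a1 was at 5.83, 5.32, 5.88 and 9.43 FPKM in plckGAPDH spleens, against 10.3, 5.03 and 10.5 FPKM in wild-type spleens. The groups overlapped, and the unnumbered spleen was the only plckGAPDH spleen near the 2 high wild-type spleens. Slc2a3 measured 3.53, 2.52, 7.84 and 3.85 FPKM in plckGAPDH spleens, against 6.49, 6.87 and 7.24 FPKM in wild-type spleens. Only spleen 547 exceeded the wild-type spleens, and the log2 fold change was -0.62 ± 0.38 (limma SE, FDR 0.783). After median-of-ratios scaling each plckGAPDH spleen was below each wild-type spleen, with 5.75 in spleen 547 against 5.86 in wild-type spleen 5. The 3 hexokinases, which trap glucose in the cell by phosphorylation, had unlike levels. Hk2, the inducible form of dividing cells, held 3.93, 9.07, 22.8 and 5.27 FPKM in plckGAPDH spleens, against 4.08, 2.26 and 3.53 FPKM in wild-type spleens. Spleens 508, 547 and unnumbered lay above all wild-type spleens. Spleen 343 did so only after median-of-ratios scaling (4.34, against 2.86 to 3.81 in wild-type spleens). The log2 fold change was 1.14 ± 0.51 (limma SE, FDR 0.541). It was 0.68 without spleen 547 and 0.57 with sample quality weights. Hk1, the constitutive form, showed 10.6, 5.09, 23.2 and 32.98 FPKM in plckGAPDH spleens, against 17.1, 16.4 and 13.02 FPKM in wild-type spleens, so spleens 547 and unnumbered were high and spleen 508 low. Hk3, known from myeloid cells, was between 1.71 and 7.6 FPKM in plckGAPDH spleens, against 2.71 to 4.51 FPKM in wild-type spleens. The neutrophil markers differed between these spleens: the summed FPKM of 10 such genes was 616, 1414, 1238 and 907 in plckGAPDH spleens and 3540.2, 5.88 and 559.8 in wild-type spleens, and its part in the level of Hk3 was not tested.

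Phosphofructokinase, the committed step, was mostly Pfkp (platelet form) in every library. Pfkp was at 19.3, 21.99, 97.3 and 46.5 FPKM in plckGAPDH spleens, against 18.3, 33.2 and 17.2 FPKM in wild-type spleens. Spleens 547 and unnumbered lay above all wild-type spleens, and the log2 fold change was 0.75 ± 0.56 (limma SE, FDR 0.857), or 0.30 without spleen 547. Pfkl, the liver form, was at 12.7, 7.36, 22.3 and 16.8 FPKM in plckGAPDH spleens, against 8.73, 7.61 and 8.81 FPKM in wild-type spleens. Here 3 of 4 plckGAPDH spleens were above every wild-type spleen and spleen 508 was below them, with a log2 fold change of 0.66 ± 0.41 (limma SE, FDR 0.793), or 0.43 without spleen 547. Pfkm, the muscle form, stayed at 0.63 to 2.06 FPKM in plckGAPDH spleens and 0.58 to 1.28 FPKM in wild-type spleens. The 4 bifunctional enzymes Pfkfb1 to Pfkfb4, which make and remove the phosphofructokinase activator fructose-2,6-bisphosphate, had a median log2 fold change of -0.026 and were negative under each scaling, Pfkfb1 to Pfkfb3 by little. Pfkfb4 was at 1.22, 0.61, 3.83 and 2.78 FPKM in plckGAPDH spleens, against 5.66, 1.56 and 7.18 FPKM in wild-type spleens. It overlapped between the groups, was highest in wild-type spleens 1 and 5, and had a log2 fold change of -0.87 ± 0.49 (limma SE, FDR 0.72). That was -1.38 without wild-type spleen 4 and -0.54 without wild-type spleen 5. Pfkfb3, the most abundant of the 4, was at 5.98, 4.35, 8.71 and 10.8 FPKM in plckGAPDH spleens, against 7.62, 5.66 and 8.37 FPKM in wild-type spleens. Pfkfb1 and Pfkfb2 lay between 0.96 and 6.08 FPKM in plckGAPDH spleens, against 1.39 to 4.06 FPKM in wild-type spleens. Gpi1, which isomerises glucose-6-phosphate, was at 86.2, 74.7, 113 and 130.4 FPKM in plckGAPDH spleens, against 89.5, 54.5 and 105 FPKM in wild-type spleens, and the groups overlapped.

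Tpi1 and Pkm, just before Gapdh and at the end of the pathway, were among the members with the largest positive fold changes, beside Hk2 and Pgk1. The order of these 4 is not firm: Hk2 was largest with a pseudocount of 0.1 (1.32) and without the unnumbered spleen (1.33) or wild-type spleen 1 (1.27). Pgk1 was largest with sample quality weights (1.63), without wild-type spleens 4 and 5 (1.39) and without plckGAPDH spleen 343 (1.59) or wild-type spleen 5 (1.51). Tpi1, the isomerase that lets both products of aldolase enter the Gapdh step, was at 40.4, 35.99, 110.0 and 127 FPKM in plckGAPDH spleens, against 29.2, 27.5 and 29.9 FPKM in wild-type spleens. Each plckGAPDH spleen was above each wild-type spleen, with spleens 343 and 508 nearest to them. Its means were 78.3 ± 46.95 FPKM (SD, n = 4) in plckGAPDH spleens and 28.9 ± 1.25 FPKM (SD, n = 3) in wild-type spleens and its log2 fold change 1.19 ± 0.51 (limma SE, FDR 0.5). Pkm, the pyruvate kinase of proliferating cells and many tissues, was at 131, 172, 263 and 348 FPKM in plckGAPDH spleens, against 91.2, 86.5 and 98.8 FPKM in wild-type spleens. Again no plckGAPDH spleen overlapped the wild-type spleens, which lay within a narrow range. Its means were 228 ± 96.9 FPKM (SD, n = 4) in plckGAPDH spleens and 92.2 ± 6.24 FPKM (SD, n = 3) in wild-type spleens and its log2 fold change 1.20 ± 0.46 (limma SE, FDR 0.416). In FPKM as deposited, Tpi1 and Pkm were the only 2 of the 35 members (5.71%) with every plckGAPDH spleen above every wild-type spleen, and 3.39% of all genes had this order. After median-of-ratios scaling Hk2 had it too, and the share of all genes was not counted on that scale.

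Pgk1, phosphoglycerate kinase, was at 25.6, 66.2, 117 and 119.8 FPKM in plckGAPDH spleens, against 26.2, 22.01 and 55.8 FPKM in wild-type spleens. Spleens 508, 547 and unnumbered were above the wild-type spleens and spleen 343 was within them, with means of 82.3 ± 45.1 FPKM (SD, n = 4) in plckGAPDH spleens and 34.6 ± 18.4 FPKM (SD, n = 3) in wild-type spleens and a log2 fold change of 1.11 ± 0.58 (limma SE, FDR 0.652). A copy named Pgk1-rs7 is identical to Pgk1 over 1255 aligned bases, so reads of Pgk1 can be split between them. It was at 10.03, 14.2, 0 and 18.4 FPKM in plckGAPDH spleens, against 8.28, 9.85 and 0.25 FPKM in wild-type spleens. Spleen 547 was listed at 0 and wild-type spleen 5 near it, and these 2 are not of 1 genotype. With both genes summed the log2 fold change was 1.05 (limma FDR 0.622). Near-identical copies of the other members held at most 1.13% of the combined signal (FPKM times length), in the case of G6pdx.

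Pgam1, phosphoglycerate mutase, was at 30.5, 36.6, 92.6 and 74.4 FPKM in plckGAPDH spleens, against 29.9, 24.8 and 34.2 FPKM in wild-type spleens. Spleens 508, 547 and unnumbered exceeded every wild-type spleen, and the log2 fold change was 0.82 ± 0.47 (limma SE, FDR 0.721). Eno1, the main enolase, was at 60.03, 73.8, 105 and 145 FPKM in plckGAPDH spleens, against 68.8, 55.1 and 86.2 FPKM in wild-type spleens. Only spleens 547 and unnumbered were above the wild-type spleens. Eno2, known from neurons, was at 0.82, 0.41, 4.78 and 3.49 FPKM in plckGAPDH spleens, against 0.78, 0.42 and 0.37 FPKM in wild-type spleens. It was high in the same 2 spleens, missed the filter on low values and was not tested. Eno3, known from muscle, was at 4.48, 2.36, 12.7 and 5.63 FPKM in plckGAPDH spleens, against 5.28, 4.02 and 11.01 FPKM in wild-type spleens, and the groups overlapped. The summed FPKM of 5 muscle genes was 4.7, 2.54, 5.77 and 4.08 in plckGAPDH spleens, against 1.67, 1.89 and 4.44 in wild-type spleens. Of these, Ckm, Acta1 and Myh1 were at or below 0.1 FPKM in all 9 libraries, while Mylpf was at 0.95 to 3.32 FPKM and Tnnt3 at 0.55 to 3.89 FPKM. Tnnt3 was highest in spleen 547, as Eno3 was. Mylpf was highest in wild-type spleen 5, and its 1.81 FPKM in spleen 547 was the lowest of the plckGAPDH spleens. The part of these muscle genes in the level of Eno3 was not tested. Aldoa, the main aldolase, was at 101, 142, 199 and 248 FPKM in plckGAPDH spleens, against 126, 92.5 and 149.9 FPKM in wild-type spleens. Its groups overlapped. Its rare relative Aldoc stayed at 0.59 to 3.33 FPKM in plckGAPDH spleens and 0.48 to 2.73 FPKM in wild-type spleens.

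**Figure D3:**
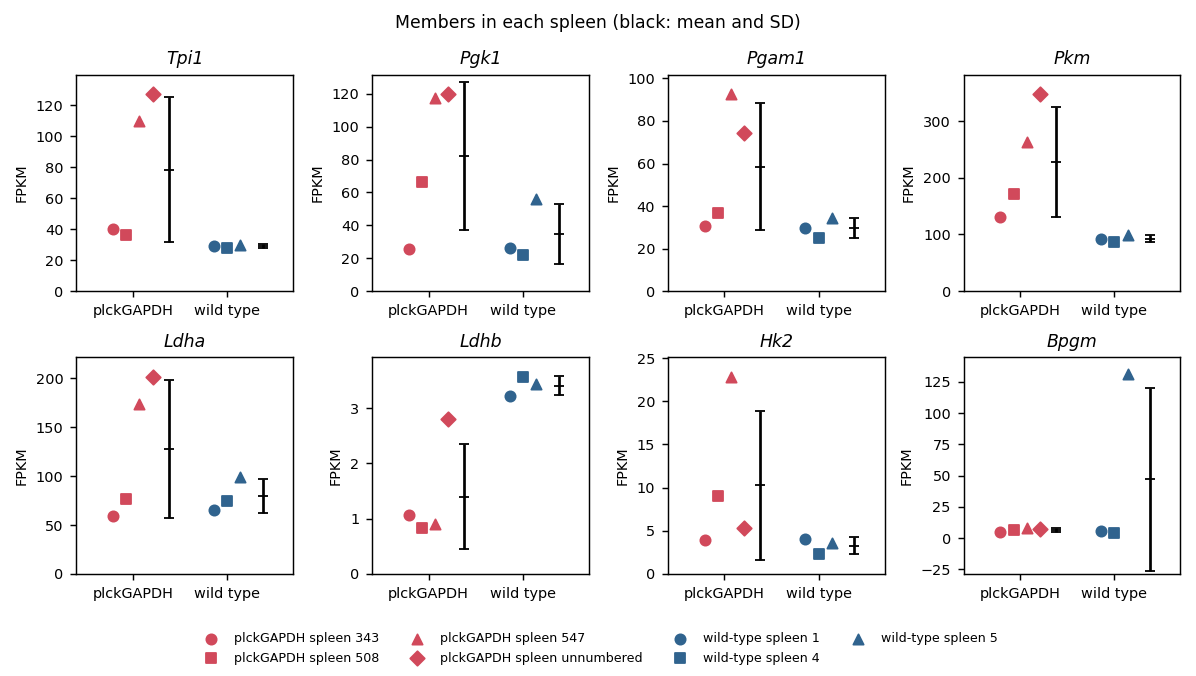
FPKM of 8 members in each spleen, with plckGAPDH spleens (red) left of wild-type spleens (blue), a symbol for each library, and the mean with its SD in black. Tpi1 and Pkm do not overlap between the genotypes and are highest in spleens 547 and unnumbered, Ldhb is lower in all 4 plckGAPDH spleens, and the wild-type mean of Bpgm rests on spleen 5 at 131 FPKM.

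Bpgm makes and breaks 2,3-bisphosphoglycerate, which lowers the oxygen affinity of haemoglobin in red cells. It was at 4.93, 6.19, 8.5 and 7.21 FPKM in plckGAPDH spleens, against 5.65, 4.2 and 131 FPKM in wild-type spleens. Wild-type spleen 5, the library with Hbb-bs at 33216 FPKM, stood far above all others. The log2 fold change was -1.13 ± 0.88 (limma SE, FDR 0.876), and 0.37 without that spleen. The summed FPKM of 8 erythroid genes was 395, 30.2, 2203 and 204 in plckGAPDH spleens, against 72.1, 1.93 and 74191 in wild-type spleens. Pdk1 (27.3 FPKM) and Taldo1 (143 FPKM) were also highest in wild-type spleen 5.

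Lactate dehydrogenase was almost all of the A form, and its B form was the member with the smallest p. Ldha, which favours lactate formation, was at 58.97, 76.96, 173 and 201 FPKM in plckGAPDH spleens, against 65.9, 74.3 and 99.2 FPKM in wild-type spleens. Spleens 547 and unnumbered were above the wild-type spleens, spleens 343 and 508 were not, and the log2 fold change was 0.51 ± 0.51 (limma SE, FDR 0.923). Ldhb, the form of heart and other oxidative tissues, was at 1.06, 0.83, 0.9 and 2.81 FPKM in plckGAPDH spleens, against 3.22, 3.56 and 3.44 FPKM in wild-type spleens. In FPKM as deposited, each plckGAPDH spleen was below each wild-type spleen, the only member of 35 with that order, which 3.88% of all genes had. After median-of-ratios scaling Slc2a3 had that order too, and the share of all genes was not counted on that scale. The means of Ldhb were 1.4 ± 0.945 FPKM (SD, n = 4) in plckGAPDH spleens and 3.41 ± 0.172 FPKM (SD, n = 3) in wild-type spleens. Its log2 fold change was -0.95 ± 0.35 (limma SE, FDR 0.38), or -0.55 with sample quality weights. As a share of both lactate dehydrogenases, which no scaling of a library alters, Ldhb took 1.77, 1.07, 0.516 and 1.38% in plckGAPDH spleens, against 4.66, 4.57 and 3.35% in wild-type spleens. The exact two-sided permutation p over the 35 splits was 0.0286, the smallest they allow, and 0.229 adjusted over 8 isozyme families.

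The summed FPKM of 10 T cell genes was 374, 176, 245 and 1176 in plckGAPDH spleens, against 450.0, 648 and 727 in wild-type spleens. Their median log2 fold change was -0.64, and all 10 were negative under each scaling. With limma 0 were called, and 1 had an unadjusted p under 0.05. The unnumbered spleen had the highest T cell sum of all libraries and the highest Ldhb of the plckGAPDH spleens. Each wild-type spleen had a lower T cell sum and more Ldhb than the unnumbered spleen. Lymph node 455 had the highest Ldhb of all libraries, 5.46 FPKM, at a T cell sum of 284. The part of T cell content in the level of Ldhb was not tested. The lactate transporters overlapped between the genotypes. Slc16a1 (MCT1) was at 1.19, 3.38, 10.4 and 5.46 FPKM in plckGAPDH spleens, against 1.99, 2.45 and 5.64 FPKM in wild-type spleens. Slc16a3 (MCT4), the exporter of glycolytic cells, was at 2.33, 1.37, 3.77 and 7.72 FPKM in plckGAPDH spleens, against 2.23, 1.69 and 2.15 FPKM in wild-type spleens, highest in the unnumbered spleen. Pdk1, the kinase that shuts pyruvate dehydrogenase, was at 6.67, 7.08, 12.6 and 13.1 FPKM in plckGAPDH spleens, against 7.98, 7.18 and 27.3 FPKM in wild-type spleens. Its target subunit Pdha1 was between 12.7 and 35.9 FPKM in plckGAPDH spleens, against 13.8 to 30.9 FPKM in wild-type spleens, and neither separated the groups.

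The 7 pentose phosphate genes had a median log2 fold change of 0.23, 4 positive and 3 negative, and none separated the genotypes. The smallest p was that of Pgls, the lactonase of the oxidative branch, at 37.4, 31.9, 97.9 and 43.4 FPKM in plckGAPDH spleens, against 35.2, 13.4 and 54.1 FPKM in wild-type spleens. Its log2 fold change was 0.66 ± 0.54 (limma SE, FDR 0.887), and wild-type spleen 5 lay above 3 of the 4 plckGAPDH spleens. The value was 0.32 without plckGAPDH spleen 547, 0.12 without wild-type spleen 4 and 1.09 without wild-type spleen 5. G6pdx, the enzyme of entry into the pathway, was at 10.8, 10.8, 22.3 and 17.6 FPKM in plckGAPDH spleens, against 15.2, 8.03 and 14.7 FPKM in wild-type spleens. Pgd, which makes NADPH in the next oxidation, kept to 13.1 to 19.01 FPKM in plckGAPDH spleens and 8.8 to 17.7 FPKM in wild-type spleens. Of the non-oxidative branch, Tkt (transketolase) was at 23.1, 34.5, 115 and 59.3 FPKM in plckGAPDH spleens, against 41.5, 21.3 and 55.3 FPKM in wild-type spleens, highest in spleen 547. Taldo1 (transaldolase) had 55.3, 48.04, 88.4 and 72.8 FPKM in plckGAPDH spleens, against 72.9, 36.6 and 143 FPKM in wild-type spleens. Rpia and Rpe, which interconvert the pentose phosphates, were at 3.39 to 24.1 FPKM in plckGAPDH spleens, against 7.93 to 19.2 FPKM in wild-type spleens. In spleen 508 Rpia was at 3.39 FPKM, the lowest of the 7 spleens.

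**Figure D4:**
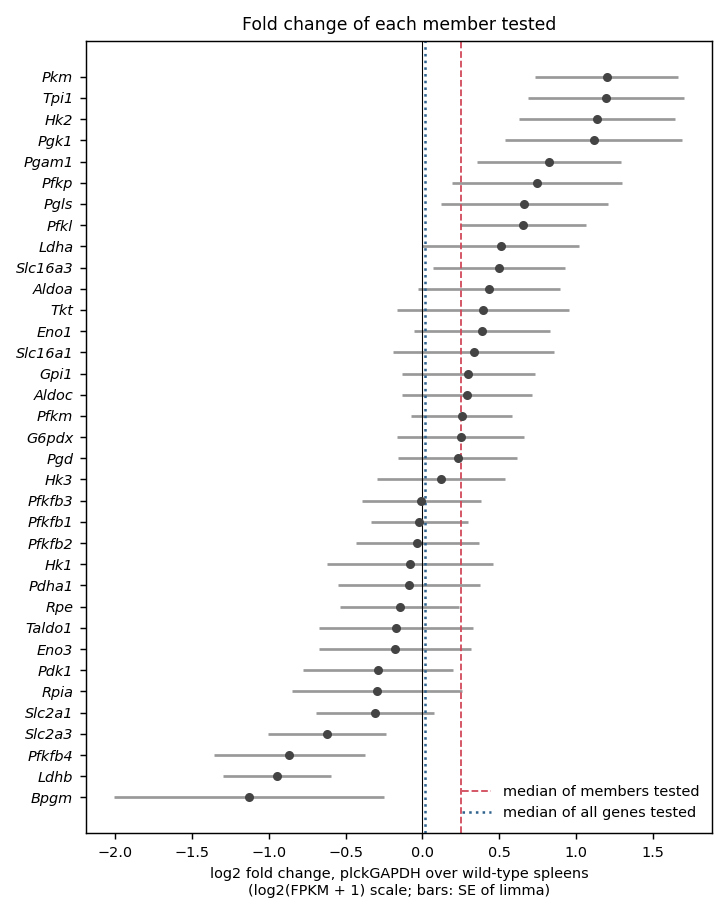
Points give the log2 fold change of the 35 members tested, plckGAPDH over wild-type spleens on the log2(FPKM + 1) scale, with the limma SE as bars. Pkm (1.20), Tpi1 (1.19) and Hk2 (1.14) lie farthest right and Bpgm (-1.13) and Ldhb (-0.95) farthest left, and the median of members (dashed, 0.25) stands to the right of the median of all genes (dotted, 0.019).

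In 8 families of isozymes the share of 1 isozyme in the summed FPKM of its family was compared with the exact permutation test, with Ldhb the only family at an unadjusted p under 0.05. With 35 splits the smallest p is 0.0286, which adjusts to 0.229 when 1 family of 8 reaches it. A single family thus could not pass after adjustment, and 0 passing is no evidence of equal shares. Before adjustment, the exact p of the families other than that of Ldhb ran from 0.143 to 0.943. Hk2 made 22, 57.1, 42.6 and 12.3% of hexokinase FPKM in plckGAPDH spleens, against 15.9, 10.6 and 17.7% in wild-type spleens. Its share was high in spleens 508 and 547 and within or near the wild-type range in spleens 343 and unnumbered (exact p = 0.229, adjusted 0.457). In the lymph nodes 455 and 508 Hk2 made 40.2 and 60.1%, so both samples of animal 508 had more Hk2 than Hk1. Eno2 made 1.25, 0.536, 3.91 and 2.27% of enolase FPKM in plckGAPDH spleens, against 1.04, 0.705 and 0.379% in wild-type spleens (exact p = 0.229, adjusted 0.457). Pfkfb3 made 52.7, 57.8, 42.3 and 59.9% of the Pfkfb family in plckGAPDH spleens, against 40.2, 49.5 and 42.4% in wild-type spleens (exact p = 0.143, adjusted 0.457). For Pfkp, Aldoc, Slc2a3 and Slc16a3 the exact p ran from 0.429 to 0.943.

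**Figure D5:**
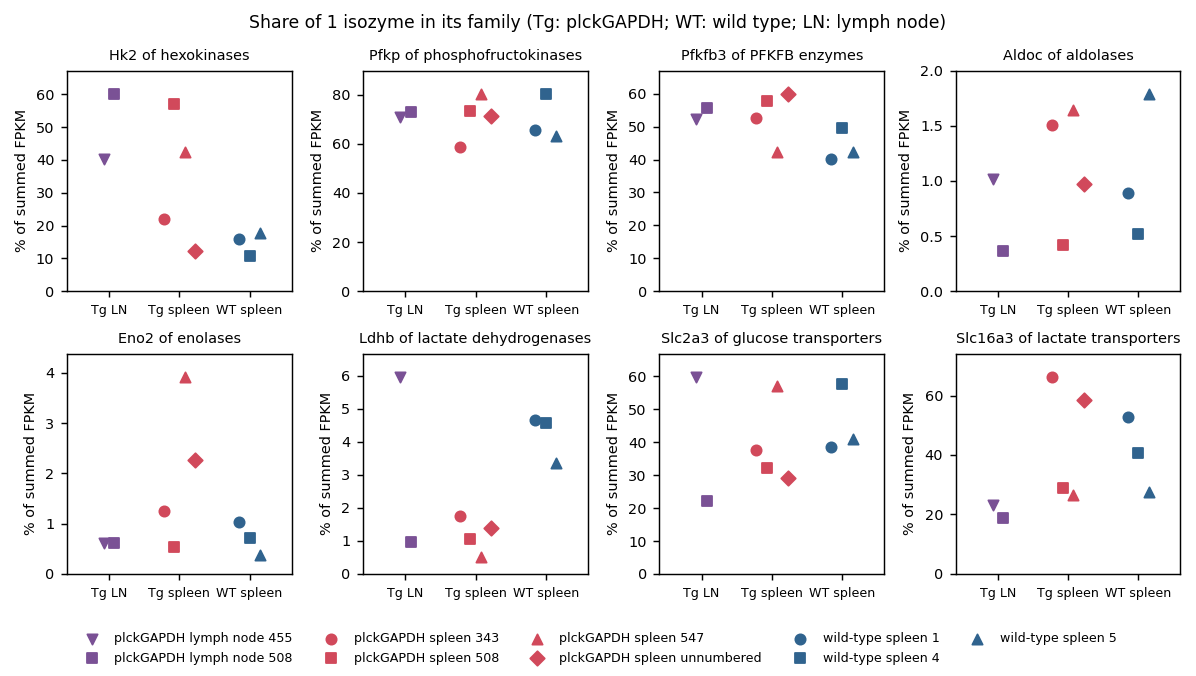
Each panel shows the percent of a family's summed FPKM taken by 1 isozyme, with the 2 plckGAPDH lymph nodes (purple), the 4 plckGAPDH spleens (red) and the 3 wild-type spleens (blue) from left to right. Ldhb is below the wild-type spleens in all 4 plckGAPDH spleens and in lymph node 508 but at 5.96% in lymph node 455, and Hk2 exceeds 40% in both lymph nodes and in spleens 508 and 547.

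Between plckGAPDH lymph nodes and plckGAPDH spleens, the members were lower in the nodes to about the degree that all genes were. In a fit of 3 groups over the 9 libraries, all 36 members passed the filter (1 FPKM in 2 samples). With limma 0 were called over 13682 genes, where 0.0146% of all genes were, and 3 had an unadjusted p under 0.05, against 11.3% of all genes. Fold changes were negative in 34 members (94.4%), against 89.1% of all genes, with a median of -0.75 beside -0.59 for all genes. After median-of-ratios scaling the members' median was -0.081 and that of all genes -0.014, with 17 members positive and 19 negative. Without lymph node 508 the median was -0.41. Both nodes lay below every plckGAPDH spleen in 7 members (19.4%, against 30.0% of all genes): Slc2a1, Gpi1, Bpgm, Eno3, G6pdx, Pgd and Taldo1. In animal 508, the node was below the spleen in 34 of 36 members, against 85.8% of all genes, with a median difference of -0.54 on the log2 scale beside -0.36.

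The smallest p of this comparison was that of Eno3, at 1.59 and 1.19 FPKM in lymph nodes 455 and 508, against 4.48, 2.36, 12.7 and 5.63 FPKM in plckGAPDH spleens. Its log2 fold change was -1.43 ± 0.54 (limma SE, FDR 0.359). Hk3 was at 2.44 and 0.47 FPKM in lymph nodes 455 and 508, against 3.3, 1.71, 7.6 and 4.68 FPKM in plckGAPDH spleens, with a log2 fold change of -1.12 ± 0.50 (limma SE, FDR 0.359). Eno3 did not overlap between the tissues, whereas Hk3 in lymph node 455 was above spleen 508. The neutrophil genes had a summed FPKM of 44.05 and 57.96 in the nodes, against 616, 1414, 1238 and 907 in plckGAPDH spleens. Their part in the level of Hk3 was not tested. The fold change of Hk3 was -1.73 without node 455 and -0.51 without node 508, where G6pdx was -0.59 and Pfkl -0.55 on the log2 scale. The next in order had log2 fold changes of -0.99 ± 0.45 (limma SE, FDR 0.359) for G6pdx, -0.85 ± 0.39 (limma SE, FDR 0.359) for Pgd, -1.08 ± 0.52 (limma SE, FDR 0.359) for Eno2 and -0.90 ± 0.44 (limma SE, FDR 0.359) for Pfkl. G6pdx was at 9.45 and 5 FPKM in lymph nodes 455 and 508, against 10.8, 10.8, 22.3 and 17.6 FPKM in plckGAPDH spleens. Pgd was at 9.85 and 7.54 FPKM in lymph nodes 455 and 508, against 15.2, 13.1, 18.6 and 19.01 FPKM in plckGAPDH spleens. Pfkl was at 9.06 and 5.2 FPKM in lymph nodes 455 and 508, against 12.7, 7.36, 22.3 and 16.8 FPKM in plckGAPDH spleens. Eno2 was at 0.42 and 0.28 FPKM in the nodes, against 0.82, 0.41, 4.78 and 3.49 FPKM in plckGAPDH spleens. It reached 1 FPKM only in spleens 547 and unnumbered. Eno2 thus passed the filter through the group where it is high, which favours a negative fold change, so its place in this order carries no weight. Ldhb and Slc16a1 were the members with positive fold changes. Ldhb was at 5.46 and 0.51 FPKM in lymph nodes 455 and 508, against 1.06, 0.83, 0.9 and 2.81 FPKM in plckGAPDH spleens, so it was high in node 455 and low in node 508.

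Genes next to the pathway gave 0 calls as well. Across 7 lists (hypoxia targets, regulators, other glycolytic and transport genes, pyruvate entry, other pentose phosphate genes, gluconeogenesis, and glycogen with side branches), 61 genes were tested with limma between the spleens, 0 were called, and 5 had an unadjusted p under 0.05 beside 8.85% of all genes. Phgdh, which draws 3-phosphoglycerate into serine synthesis, was at 32.9, 84.4, 112 and 52.9 FPKM in plckGAPDH spleens, against 22.1, 11.1 and 30.8 FPKM in wild-type spleens. All 4 plckGAPDH spleens were above the wild-type spleens, with a log2 fold change of 1.65 ± 0.51 (limma SE, FDR 0.231). Gbe1, the glycogen branching enzyme, was next in its list with a log2 fold change of -0.77 ± 0.40 (limma SE, FDR 0.652). Slc2a6, a transporter of the GLUT family, was at 19.1, 15.2, 6.71 and 9.01 FPKM in plckGAPDH spleens, against 4.39, 4.72 and 3.55 FPKM in wild-type spleens. It did not overlap between the groups, and its log2 fold change was 1.28 ± 0.41 (limma SE, FDR 0.249). Next among the hypoxia targets was Ero1l, an oxidase of the endoplasmic reticulum, with a log2 fold change of 0.74 ± 0.42 (limma SE, FDR 0.72), and the 12 hypoxia targets tested had a median of 0.095 with 7 positive.

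Among the regulators, Txnip, which restrains glucose uptake, was at 74.7, 41.9, 48.8 and 60.2 FPKM in plckGAPDH spleens, against 140.1, 62.4 and 169 FPKM in wild-type spleens. Its groups overlapped only through spleen 343 and wild-type spleen 4, and its log2 fold change was -1.04 ± 0.46 (limma SE, FDR 0.546). Myc was at 7.9, 15.5, 44.7 and 15.96 FPKM in plckGAPDH spleens, against 9.47, 9.85 and 13.2 FPKM in wild-type spleens, with spleen 547 the highest and a log2 fold change of 0.64 ± 0.51 (limma SE, FDR 0.877). Pdk3, another kinase of pyruvate dehydrogenase, was at 9.22, 15.4, 34.6 and 21.9 FPKM in plckGAPDH spleens, against 6.98, 7.73 and 9.65 FPKM in wild-type spleens, with a log2 fold change of 1.09 ± 0.45 (limma SE, FDR 0.471). Spleens 508, 547 and unnumbered were above the wild-type spleens. Pdp1, a phosphatase that reverses the kinases, had a log2 fold change of -0.47 ± 0.36 (limma SE, FDR 0.864). Pgam2, the muscle form of the mutase, was at 1.14, 2.4, 33.3 and 5.26 FPKM in plckGAPDH spleens, against 0.86, 0.76 and 1.37 FPKM in wild-type spleens. Spleen 547 held most of it, and its log2 fold change was 1.67 ± 0.73 (limma SE, FDR 0.528). Bsg, the chaperone of the lactate transporters, had a log2 fold change of 0.50 ± 0.46 (limma SE, FDR 0.912). Rbks and Prps1 of the pentose phosphate neighbours had log2 fold changes of 0.38 ± 0.32 (limma SE, FDR 0.891) and 0.27 ± 0.42 (limma SE, FDR 0.972). In gluconeogenesis only Pck2 and G6pc3 of 6 genes reached the filter, with log2 fold changes of 1.14 ± 0.62 (limma SE, FDR 0.697) and 0.22 ± 0.40 (limma SE, FDR 0.977).

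Of the markers of other cells, 2 of 9 B cell genes were the only ones called between the spleens, both lower. Cr2, the complement receptor of mature B cells, was at 0.69, 0.14, 0.14 and 1.28 FPKM in plckGAPDH spleens, against 155, 11.01 and 146 FPKM in wild-type spleens, and Fcer2a, the low-affinity IgE receptor, at 1.07, 9.83, 0.22 and 0.81 FPKM in plckGAPDH spleens, against 41.5, 17.5 and 107 FPKM in wild-type spleens. The log2 fold changes were -5.44 ± 0.75 (limma SE, FDR 0.00169) and -4.05 ± 0.73 (limma SE, FDR 0.0136). The median log2 fold change of the lists was 2.01 for neutrophils (9 of 10 positive), 1.0 for plasma cells (5 of 6), -0.15 for erythroid cells (3 of 7), -0.39 for B cells (1 of 9) and -0.51 for macrophages (1 of 8). Platelet, muscle, neural, pancreatic and adipose lists had 1 to 4 genes tested and 0 called with limma, 0 at an unadjusted p under 0.05. The summed FPKM of 4 pancreatic genes was 224 and 5.62 in lymph nodes 455 and 508, 124, 2.82, 2.97 and 14 in plckGAPDH spleens and 172, 6.97 and 5.62 in wild-type spleens, so node 455, plckGAPDH spleen 343 and wild-type spleen 1 held most of it. The part of cell content in the levels of the members was not tested.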

How the data were processed

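RNA of 9 libraries was measured. Per the labels' protocols, total RNA of splenocytes was made into stranded total RNA libraries and sequenced as paired reads. The authors deposited FPKM with 2 decimals. The tools listed, per the submitters' processing notes, are RSEM, Bowtie2 2.2.6, STAR 2.4.0a and the featureCounts program from Subread 1.5.0-p3, on mm10. Which one made the FPKM, with what annotation, was not given in the sources used here. Libraries were matched to labels by title, except the unnumbered spleen, matched to its group only.

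limma 3.58.1 in R 4.3.3 was fitted on log2(FPKM + 1) with an intensity trend, on the 7 spleens (genes at 1 FPKM in at least 3) and on all 9 libraries for the lymph nodes (1 FPKM in at least 2), with Benjamini-Hochberg adjustment over all genes tested. Fold changes on this scale understate the change of low genes. The script was tested on simulated data. Isozyme shares were compared by an exact permutation test of the absolute difference in means. Depth was estimated from low FPKM of genes with 1 transcript, of which 85.3% to 87.9% lay at whole fragments within a tolerance of 0.1 plus rounding, against 32.4% to 34.3% by chance (largest error on 3 simulated libraries 2.5%). Copies were found with BLAST.

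Named were all members called, the 12 with the smallest p between spleens, the 6 with the smallest p between nodes and spleens, the main genes of each family, and the top genes of the other lists. The members and lists were chosen with earlier results of these data known. Other scalings, pseudocounts, filters, weights and left-out libraries were tried.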

Additional observations from a re-analysis of the deposited data

Results flagged for a closer look

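Within the 4 plckGAPDH spleens, 44 sets of values (36 members and 8 shares) were screened for 1 library far from the other 3, and 3 stood apart, where chance gives about 1 in 20. Slc2a1 was at 9.43 FPKM in the unnumbered spleen, against 5.32 to 5.88 FPKM in the other plckGAPDH spleens, with wild-type spleens at 5.03 to 10.5 FPKM. Ldhb was at 2.81 FPKM in the same spleen, against 0.83 to 1.06 FPKM in the other plckGAPDH spleens, with wild-type spleens at 3.22 to 3.56 FPKM. Pfkfb1 was at 0.96 FPKM in spleen 508, against 1.82 to 1.99 FPKM in the other plckGAPDH spleens, with wild-type spleens at 1.39 to 2.11 FPKM.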

How the results depend on the processing

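Between the spleens, 0 members were called with limma under every alternative except sample quality weights. These called 8 of 35 members (7 higher, 1 lower) and 7 of 61 genes of the other lists, beside 1863 of all 12607 genes. Wild-type spleen 1 was weighted 24.8 there and each remaining spleen 0.296 to 2.04, and the estimation of weights stopped before it converged. Over the other alternatives, at most 8 members had an unadjusted limma p under 0.05. Median-of-ratios scaling gave 8 of 35, beside 1677 of 12631 genes. Scaling to protein-coding genes gave 8 of 36, beside 1432 of 12722 genes. All genes called numbered 181, and became 74 without a filter, 1863 with the weights, 12 without wild-type spleens 4 and 5, 0 without immunoglobulin and T cell receptor genes (946 at an unadjusted p under 0.05), and 72 to 265 with 1 library left out. Scaling to protein-coding genes, the fit without receptor genes and the sum with Pgk1-rs7 were chosen after seeing the data.

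Bpgm turned positive with the weights (0.12) and without wild-type spleens 4 and 5 (0.19), and ran from -1.97 to 0.37 with 1 library left out. With 1 library left out, the difference in share ran from -2.07 to 6.52 percentage points for Pfkp, -0.207 to 0.429 for Aldoc and -2.42 to 10.84 for Slc16a3. The causes were not tested.

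Between nodes and spleens, the members' median was -0.28 after scaling to protein-coding genes (all genes -0.18), -0.081 under median-of-ratios scaling (all genes -0.014) and -0.999 under scaling to a common sum (all genes -0.73; 1 member positive, 35 negative). All genes called there numbered 2, and became 1 with either scaling, 5 with a pseudocount of 0.1, 5 without a filter, 7 with the weights, 8 with plckGAPDH samples alone, and 0 to 28 with 1 library left out. Scaling to a common sum, of which 7SL RNA remained a large part, gave a spleen median of 0.036 beside -0.18 for all genes. No paired analysis was possible because the groups share only 1 animal number, 508.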
